A study of Rattus norvegicus with 9 samples.

Results

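Amino acid transporters are membrane proteins that carry amino acids and related molecules into cells, out of lysosomes and into vesicles. Some move a single class of substrate with sodium or protons, while others exchange an amino acid outside the cell for one inside, so that the carriers of a cell work as a network. In pancreatic beta cells, amino acids are building blocks of proinsulin, and several of them also promote insulin secretion. The genes described here were chosen by symbol, as every gene of the table starting with Slc1a, Slc3a, Slc6a, Slc7a, Slc36a, Slc38a or Slc43a. They numbered 50 of the 20645 rat genes listed. One of them, Slc7a6os, takes its name from its position opposite Slc7a6 and is not a transporter gene.

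Polyadenylated RNA was sequenced from INS-1E cells, a line derived from a rat insulinoma, with 3 replicates in each of 3 groups. The control (BSA) group was given fatty-acid-free BSA, the PA group palmitic acid, and the PA + C3G group palmitic acid together with cyanidin-3-O-glucoside (C3G), an anthocyanin pigment of dark fruits, all for 24 h. By the study's methods, PA was used at 0.5 mM and C3G at 50 µM. No group received C3G without PA. The study's methods describe its experiments as biological replicates, and the labels do not say which cultures the libraries came from. The depth was between 45559993 and 66730721 estimated counts in a library. All 9 beta-cell markers listed in the table were expressed, with a summed FPKM (fragments per kilobase of gene, scaled to mapped fragments) of 45500 to 46300 with BSA, 19100 to 19700 with PA and 41900 to 47800 with PA + C3G, and their part in the differences below was not tested. Gcg, the glucagon gene and the only alpha-cell marker listed, was at 8.28 to 31.2 FPKM with BSA, 1.35 to 6.02 with PA and 4.17 to 22.5 with PA + C3G. The duct-cell markers summed to 2.52 to 2.72, 4.64 to 6.04 and 3.05 to 3.87 FPKM in the same order, and the part of either in the differences below was not tested. Markers of acinar cells, fibroblasts, endothelial cells, leukocytes and delta cells summed to under 1 FPKM in every library.

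A mean of at least 1 FPKM over the 9 libraries was reached by 31 of the 50 genes, and 19 were below it. The gene just above that limit was Slc7a11 at 2.76 FPKM and the one just below it Slc7a10 at 0.712. The 31 genes had a median of 22.3 FPKM, against 12.9 for all 12958 genes at or above the limit. Those with a mean over 100 FPKM were Slc3a2 (145 FPKM), which encodes the heavy chain 4F2hc, Slc6a6 (129 FPKM), the taurine transporter, and Slc38a2 (103 FPKM), the sodium-coupled neutral carrier SNAT2. They were followed by Slc7a5 at 91.0 FPKM, which encodes the leucine exchanger LAT1, and Slc38a4 at 51.9 FPKM. In this order Slc38a4, Slc38a10, Slc6a17, Slc1a4, Slc7a2, Slc7a1 and Slc43a2 lay within 41.0 to 51.9 FPKM, and the libraries of neighbouring genes among them overlapped.

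**Figure D1:**
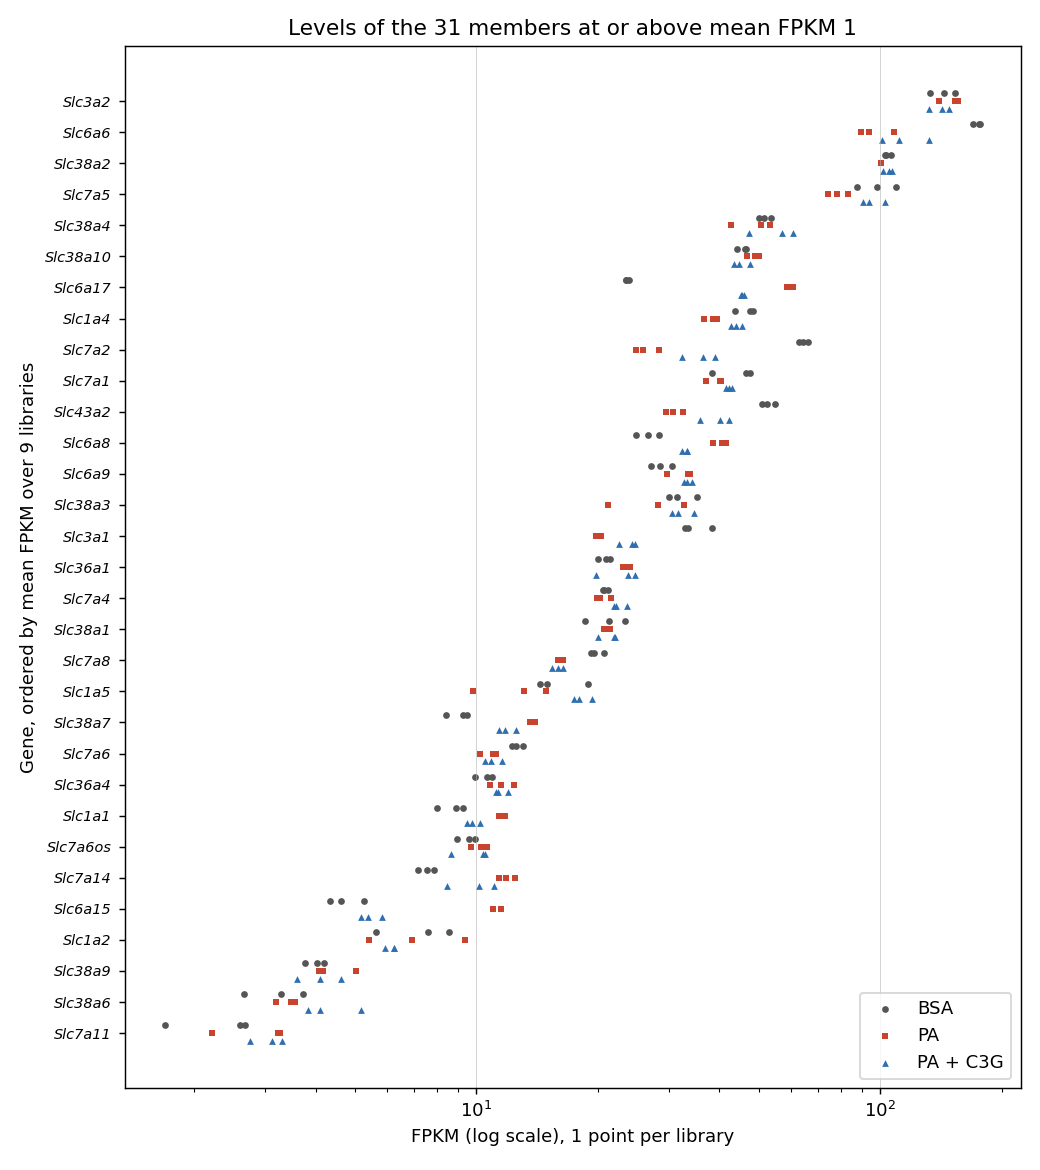
FPKM of the 31 genes with a mean of at least 1 FPKM, on a log axis, with 1 point per library (circles BSA, squares PA, triangles PA + C3G) and genes ordered by their mean. The levels run from Slc7a11 at 2.76 FPKM to Slc3a2 at 145 FPKM, and the 3 groups separate for Slc6a17 and Slc7a2, whereas for Slc6a15 only the PA libraries stand apart.

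The first comparison asks which of these genes respond to palmitic acid. With PA, transporters of the SLC6 family for neutral amino acids and creatine rose, whereas the arginine carrier Slc7a2, the taurine carrier Slc6a6, the heavy chain Slc3a1 and the branched-chain amino acid carrier Slc43a2 fell. Relative to BSA, 16 of the 31 genes (51.6%) passed the test (edgeR's quasi-likelihood test, Benjamini-Hochberg adjusted p-value under 0.05), 8 higher and 8 lower. The share was 51.0% over all 12958 tested genes, with 25.8% higher and 25.2% lower. The share of the transporter genes was thus close to that of all genes, and their median log2 fold change was 0.03 against 0.00. In PA + C3G versus PA, 11 of the 31 genes (35.5%) passed, 7 higher and 4 lower, against 21.2% of all tested genes (11.1% higher and 10.2% lower), at a median of 0.06 against −0.00. In PA + C3G versus BSA, 15 passed (48.4%), 10 higher and 5 lower, against 36.9% of all tested genes (19.0% higher and 17.9% lower), at a median of 0.10 against 0.01. Slc7a6os passed in none of the comparisons. These 3 comparisons share libraries, so they are not independent of each other. The balance of directions with C3G depended on the scaling. With each library brought to the same FPKM sum (TPM scaling), 4 genes were higher and 7 lower than with PA (5.98% and 19.5% of all tested genes), and 6 were higher and 6 lower than with BSA (38.0% of all tested genes, 14.6% higher and 23.4% lower). Both limma settings gave 5 higher and 6 lower than with BSA, and leaving out BSA replicate 1 gave 5 and 5. Leaving out PA replicate 3 lowered the PA + C3G versus PA count to 7. For limma and for the fits without 1 library, the shares of all tested genes are not given here.

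**Figure D2:**
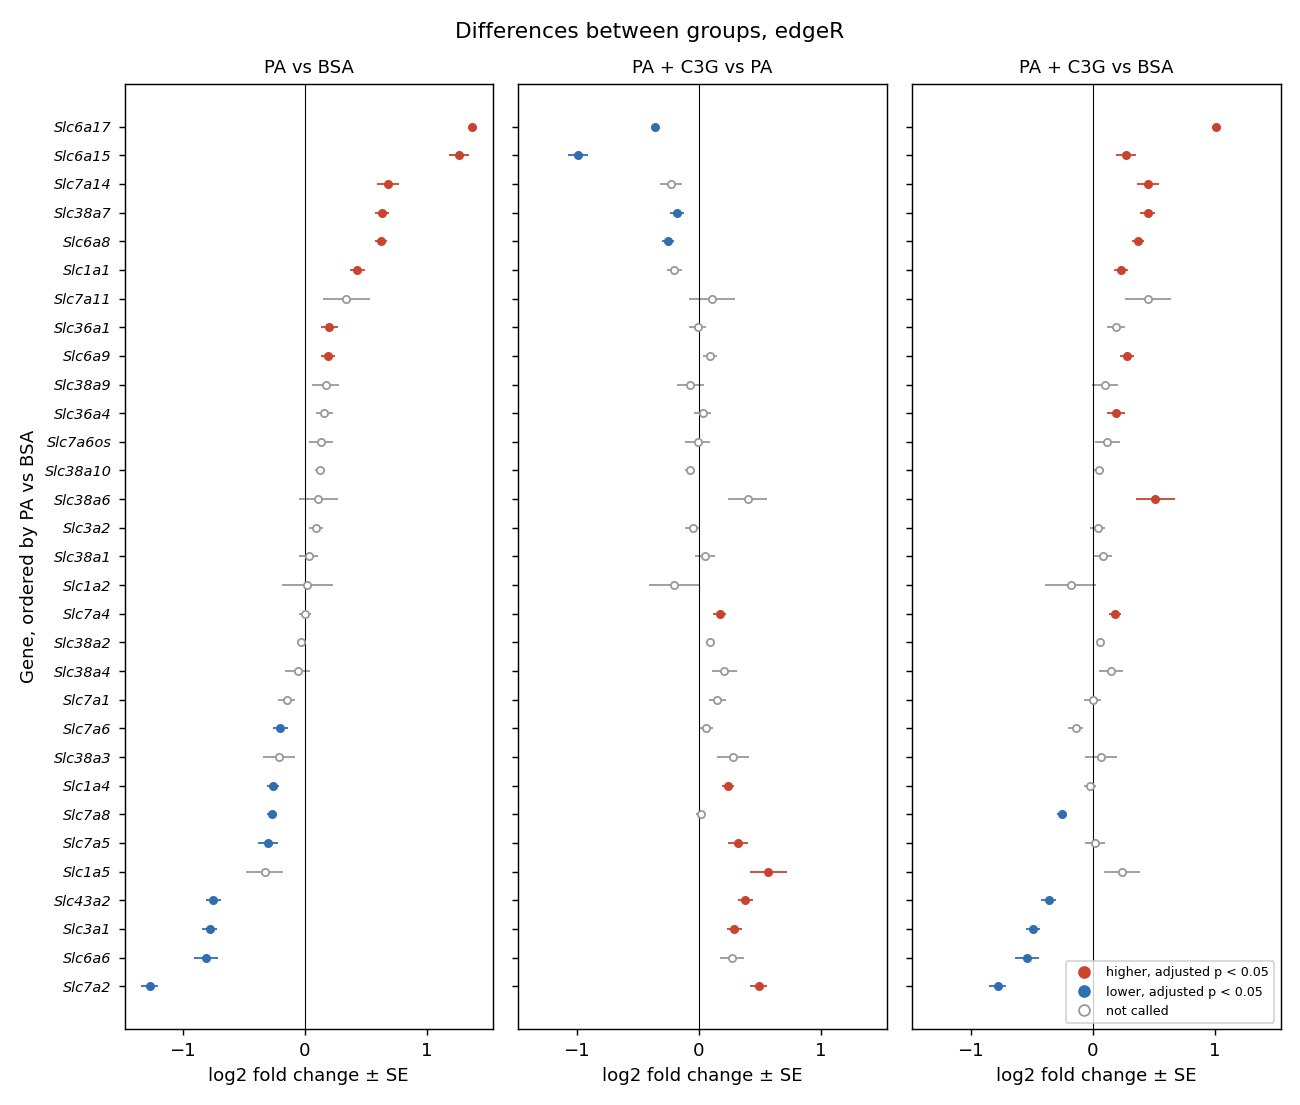
Log2 fold change with its standard error for the 31 genes in the 3 comparisons, from edgeR, with genes in the order of PA versus BSA. Filled points passed an adjusted p-value of 0.05 (red higher, blue lower) and open points did not. From Slc6a17 at 1.37 to Slc7a2 at −1.27, 16 genes are filled in PA versus BSA, 11 in PA + C3G versus PA, which uses the same PA libraries, and 15 in PA + C3G versus BSA.

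Among the SLC6 carriers of amino acids, all 3 tested genes passed as higher with PA, against 25.8% of all tested genes. Slc6a17 (ENSRNOG00000050090, on chromosome 2 from 210249663 to 210299770 in the authors' table, whose genome build is not given in the sources used here) encodes NTT4, a neutral amino acid carrier of synaptic vesicles. It was at 23.5, 23.9 and 23.5 FPKM with BSA, at 60.0, 58.9 and 60.9 with PA and at 45.38, 45.95 and 45.22 with PA + C3G. The 3 groups did not overlap, and the spread within each was narrow. The log2 fold change between PA and BSA was 1.37 (standard error, SE, 0.03, adjusted p = 5.46e-09), that between PA + C3G and PA was −0.36 (adjusted p = 0.000121), and that between PA + C3G and BSA was 1.01 (adjusted p = 7.41e-08), all from edgeR.

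Slc6a15 (ENSRNOG00000027468, chromosome 7 from 45328105 to 45382229) encodes B0AT2, which takes up branched-chain amino acids and proline. The BSA libraries were at 4.625, 5.255 and 4.35 FPKM, the PA libraries at 11.0, 11.01 and 11.49, and the PA + C3G libraries at 5.39, 5.83 and 5.16. All PA libraries were above all others, and the PA + C3G libraries overlapped the BSA libraries. It rose 2.39-fold with PA (log2 fold change 1.26, SE 0.08, adjusted p = 1.42e-06) and was 1.99-fold lower with C3G than with PA alone (log2 fold change −0.99, SE 0.08, adjusted p = 0.000121, edgeR). The remaining difference from BSA was 0.27 on the log2 scale (adjusted p = 0.0286) and lost its call under TPM scaling, limma and a fit of the compared groups, and without BSA replicate 1 or 3 or PA + C3G replicate 1 or 2. Slc6a9, the glycine transporter GlyT1, was at 28.7 ± 1.78 FPKM (SD, n = 3) with BSA, 32.3 ± 2.29 with PA and 33.4 ± 0.759 with PA + C3G, higher with PA than with BSA by 0.19 on the log2 scale (adjusted p = 0.0204), where the libraries overlapped, and with PA + C3G by 0.28 (adjusted p = 0.00470). The first of these calls was lost without BSA replicate 2 or 3 or PA replicate 1 or 3.

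The carriers of creatine and taurine moved in opposite directions. Slc6a8 (ENSRNOG00000057620, chromosome X from 157129987 to 157139291), which takes up creatine, was at 28.4, 26.5 and 24.8 FPKM with BSA, 41.5, 38.5 and 40.5 with PA, and 33.2, 32.2 and 33.2 with PA + C3G. The PA + C3G libraries lay between the other groups without overlap. PA differed from BSA by 0.62 on the log2 scale (SE 0.05, adjusted p = 6.44e-06), PA + C3G differed from PA by −0.25 (adjusted p = 0.00779), and PA + C3G differed from BSA by 0.37 (adjusted p = 0.000366).

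Slc6a6 (ENSRNOG00000009019, chromosome 4 from 123642210 to 123713464), the taurine transporter, was at 170.0, 177 and 176 FPKM with BSA, 94.1, 108 and 89.7 with PA, and 101, 132 and 111 with PA + C3G. All BSA libraries were above all others, whereas the PA and PA + C3G libraries overlapped. It was 1.76-fold lower with PA than with BSA (log2 fold change −0.81, SE 0.10, adjusted p = 8.94e-05). PA + C3G was at 0.27 relative to PA (SE 0.10, adjusted p = 0.0776), short of the threshold, while the alternatives gave adjusted p-values from 0.00964, with DESeq2, to 0.231. It passed with DESeq2, with replicate number added to the fit (0.0213), and without PA replicate 2 (0.0367) or PA + C3G replicate 1 (0.0352). PA + C3G was lower than BSA by a log2 difference of −0.54 (adjusted p = 0.00200).

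Among the carriers of the cationic amino acids arginine and lysine, Slc7a2 stood apart from Slc7a1. Slc7a2 (ENSRNOG00000011016, chromosome 16 from 54460067 to 54513349), which encodes CAT2, was at 66.2, 64.5 and 62.85 FPKM with BSA, 24.8, 28.3 and 25.8 with PA, and 32.2, 39.1 and 36.45 with PA + C3G. The 3 groups did not overlap, and the PA + C3G libraries were nearer to PA than to BSA. It fell 2.41-fold with PA (log2 fold change −1.27, SE 0.07, adjusted p = 6.72e-07) and was 1.40-fold higher with C3G than with PA alone (log2 fold change 0.49, SE 0.07, adjusted p = 0.00199), and it remained 1.72-fold below BSA (log2 fold change −0.78, adjusted p = 2.90e-05). Slc7a1, which encodes CAT1, the widely expressed carrier of the same substrates, was at 44.2 ± 5.04 FPKM (SD, n = 3) with BSA, 39.2 ± 1.89 with PA and 42.3 ± 0.749 with PA + C3G, and passed in no comparison.

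Slc7a14 (ENSRNOG00000028097, chromosome 2 from 115678344 to 115788687), a lysosomal member of the cationic carrier branch, was at 7.85, 7.56 and 7.19 FPKM with BSA, 12.45, 11.4 and 11.8 with PA, and 8.47, 11.1 and 10.2 with PA + C3G. The BSA libraries lay below all others, and the lowest PA library was above the highest PA + C3G library. The log2 difference between PA and BSA was 0.68 (SE 0.09, adjusted p = 0.000220), that between PA + C3G and PA was −0.23 (adjusted p = 0.119), and that between PA + C3G and BSA was 0.45 (adjusted p = 0.00426). The difference between PA + C3G and PA passed with TPM scaling (−0.32, adjusted p = 0.0431) and without PA + C3G replicate 2 (−0.32, adjusted p = 0.0457), with adjusted p-values up to 0.287 over the alternatives. Slc7a4, a related gene without an established transport function, was between 19.9 and 23.6 FPKM in all libraries. It was 1.13-fold higher with PA + C3G than with PA (adjusted p = 0.0259). That call was lost with TPM scaling, with limma, in a fit of the compared groups, and without PA replicate 2 or 3 or PA + C3G replicate 2 or 3. Slc7a4 was also higher with PA + C3G than with BSA, by 0.18 on the log2 scale (adjusted p = 0.0135). This second call was lost with TPM scaling, with limma, and without BSA replicate 1 or PA + C3G replicate 3.

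The heavy chains are single-pass proteins that bring SLC7 light chains, the subunits that carry the amino acids, to the cell surface. Slc3a1 (ENSRNOG00000007006, chromosome 6 from 8284878 to 8318674) encodes rBAT, a heavy chain known for cystine and dibasic amino acid transport in the kidney. It was at 32.9, 38.3 and 33.45 FPKM with BSA, 19.8, 20.4 and 19.7 with PA, and 22.6, 24.3 and 24.7 with PA + C3G, again without overlap between groups. PA differed from BSA by −0.78 on the log2 scale (SE 0.06, adjusted p = 5.86e-06), PA + C3G differed from PA by 0.29 (adjusted p = 0.0105), and PA + C3G differed from BSA by −0.49 (adjusted p = 0.000235).

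Slc3a2 (ENSRNOG00000018487, chromosome 1 from 224906554 to 224921092), the other heavy chain, was at 153.5, 133 and 144 FPKM with BSA, 153.5, 140.1 and 156 with PA, and 148, 132.5 and 142 with PA + C3G. The 3 groups overlapped, and the log2 fold changes lay between −0.05 and 0.09, with adjusted p-values of 0.271 or more. Its light chain Slc7a5 (ENSRNOG00000018824, chromosome 19 from 54693959 to 54722563) was at 110, 87.8 and 98.1 FPKM with BSA, 83.4, 74.3 and 78.2 with PA, and 103, 90.8 and 93.8 with PA + C3G. The PA libraries lay below all others. Slc7a5 was 1.23-fold lower with PA than with BSA (log2 fold change −0.30, SE 0.08, adjusted p = 0.0112) and 1.25-fold higher with PA + C3G than with PA (log2 fold change 0.32, SE 0.08, adjusted p = 0.0203). The latter call was lost with TPM scaling, which gave 0.23 (adjusted p = 0.0713, within a range of 0.00035 to 0.0713 over the alternatives), and without PA replicate 2, PA replicate 3 or PA + C3G replicate 1.

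The smaller light chains of Slc3a2 also passed in PA versus BSA, except Slc7a11. Slc7a8, which encodes LAT2, fell from 19.8 ± 0.743 FPKM (SD, n = 3) to 16.1 ± 0.275 (log2 fold change −0.27, adjusted p = 0.000483), and at 15.9 ± 0.498 with PA + C3G it differed from PA by 0.02 on the log2 scale (SE 0.04, adjusted p = 0.780). With PA + C3G, Slc7a8 was below BSA by a log2 difference of −0.25 (adjusted p = 0.0013). Slc7a6, which encodes the arginine and glutamine exchanger y+LAT2, fell from 12.6 ± 0.406 to 10.8 ± 0.520 FPKM (log2 fold change −0.20, adjusted p = 0.0149). Slc7a11 encodes xCT, which exchanges glutamate for cystine, and was at 2.674, 1.695 and 2.6 FPKM with BSA, 3.27, 2.22 and 3.23 with PA, and 3.29, 2.74 and 3.12 with PA + C3G. Replicate 2 was the lowest of each group for Slc7a11. Its difference between PA and BSA was 0.34 on the log2 scale with an SE of 0.19 (adjusted p = 0.161). That fit leaves replicate numbers out, and each PA library was above the BSA library of the same number. The value with replicate number in the fit is not given here.

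Because 3 of its light chains fell while Slc3a2 did not pass, the ratio of Slc3a2 to the summed FPKM of Slc7a5, Slc7a6, Slc7a8 and Slc7a11 was taken in each library. This ratio does not depend on the scaling of a library, and it was chosen after the values had been seen. It was 1.06, 1.10 and 1.07 with BSA, 1.36, 1.35 and 1.43 with PA, and 1.11, 1.10 and 1.16 with PA + C3G. The PA libraries were above all others, and the PA + C3G libraries met the upper end of the BSA range. The means were 1.08 ± 0.0208, 1.38 ± 0.0436 and 1.12 ± 0.0321 (SD, n = 3 each). These ratios are given as a description, without a test.

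**Figure D3:**
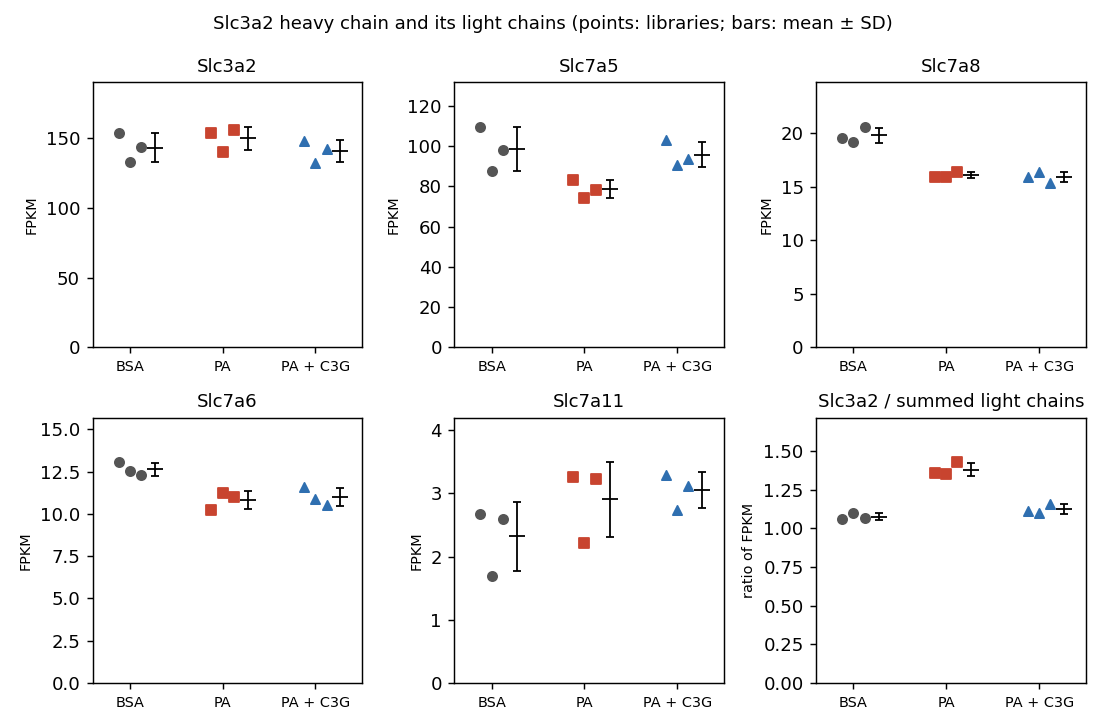
FPKM of Slc3a2 and its 4 expressed light chains, and the ratio of Slc3a2 to their sum, with 1 point per library and the mean ± SD beside the points of each group. The ratio sits at 1.35 to 1.43 in the PA libraries and at 1.06 to 1.16 in the 6 others, and Slc7a5 is the light chain with the highest level.

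Slc43a2 (ENSRNOG00000003835, chromosome 10 from 63677396 to 63719283) encodes LAT4, which needs no partner chain and lets branched-chain amino acids, phenylalanine and methionine cross the membrane by facilitated diffusion. It was at 55.0, 52.5 and 50.9 FPKM with BSA, 29.5, 32.5 and 30.7 with PA, and 35.7, 42.2 and 40.1 with PA + C3G. The groups did not overlap. The log2 difference between PA and BSA was −0.75 (SE 0.06, adjusted p = 9.15e-06), that between PA + C3G and PA was 0.38 (adjusted p = 0.00328), and that between PA + C3G and BSA was −0.36 (adjusted p = 0.00173).

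Of the SLC1 family, Slc1a4 and Slc1a5 exchange small neutral amino acids, with glutamine carried by ASCT2, the product of Slc1a5. Slc1a4 was at 46.5 ± 2.56 FPKM (SD, n = 3) with BSA, 38.2 ± 1.40 with PA and 44.1 ± 1.304 with PA + C3G. It was lower with PA than with BSA by a log2 difference of −0.26 (adjusted p = 0.00135), and PA + C3G was above PA by 0.24 (adjusted p = 0.00706, with 0.000129 to 0.0603 over the alternatives, the latter with TPM scaling). Slc1a5 was at 18.9, 15.0 and 14.3 FPKM with BSA, 14.9, 9.78 and 13.1 with PA, and 19.3, 17.5 and 18.0 with PA + C3G. The PA and BSA libraries overlapped, and the PA + C3G libraries were above all PA libraries. PA + C3G was above PA by 0.57 on the log2 scale (SE 0.15, adjusted p = 0.0224), the largest rise with C3G among the 31 genes by edgeR, and the call was lost without PA replicate 3, PA + C3G replicate 1 or PA + C3G replicate 3. Slc1a1, which encodes the glutamate transporter EAAT3, rose from 8.71 ± 0.657 to 11.55 ± 0.187 FPKM with PA (log2 fold change 0.43, adjusted p = 0.000316) and was at 9.81 ± 0.389 with PA + C3G, where the difference from PA had an adjusted p-value of 0.0509. With PA + C3G, Slc1a1 was above BSA by 0.23 on the log2 scale (adjusted p = 0.0166). That call was lost with TPM scaling, with limma, and without BSA replicate 1 or PA + C3G replicate 2. Slc1a2, which encodes the glutamate transporter GLT-1, ranged from 5.42 to 9.35 FPKM over the 9 libraries and passed in no comparison.

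The SLC38 family holds sodium-coupled carriers of glutamine, alanine and other small neutral amino acids, at the plasma membrane or on lysosomes. In PA versus BSA 1 of its 8 tested genes passed, against 51.0% of all tested genes. That gene, Slc38a7 (ENSRNOG00000012007, chromosome 19 from 9622611 to 9638222), encodes SNAT7, a lysosomal glutamine exporter. It was at 9.48, 9.25 and 8.43 FPKM with BSA, 13.9, 13.8 and 13.55 with PA, and 11.4, 11.8 and 12.5 with PA + C3G, with the PA + C3G libraries between the others. It was higher with PA than with BSA by 0.63 on the log2 scale (SE 0.06, adjusted p = 1.07e-05) and higher with PA + C3G than with BSA by 0.45 (adjusted p = 0.000168). PA + C3G was at −0.18 relative to PA (adjusted p = 0.0485), a call lost without the filter on low values (adjusted p = 0.0738, within a range of 0.00983 to 0.144 over the alternatives). It was also lost with replicate number added to the fit (0.0660) and without any single library except BSA replicate 3 and PA + C3G replicate 3.

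Slc38a2, a gene known to be induced when amino acids are scarce, was at 104, 103 and 106 FPKM with BSA, 100.5, 100.3 and 100.8 with PA, and 101.5, 105 and 107 with PA + C3G. The BSA libraries lay just above the PA libraries, at a log2 fold change of −0.03 (SE 0.03, adjusted p = 0.495). Slc38a4 was at 50.0, 53.7 and 51.6 FPKM with BSA, 42.6, 53.3 and 50.8 with PA, and 47.4, 60.7 and 57.0 with PA + C3G, and its groups overlapped. Slc38a6 passed in PA + C3G versus BSA alone, at 0.51 on the log2 scale (SE 0.16, adjusted p = 0.0314), a call lost with limma, in a fit of the compared groups, and without BSA replicate 1 or 3 or PA + C3G replicate 2 or 3. Slc38a9, whose product senses lysosomal arginine, was between 3.60 and 5.03 FPKM and passed in no comparison, as did Slc38a1, Slc38a3 and Slc38a10.

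Slc36a1 and Slc36a4 belong to the SLC36 family, and the former encodes a proton-coupled carrier that exports small amino acids from lysosomes. Slc36a1 was at 20.8 ± 0.731 FPKM (SD, n = 3) with BSA and 23.4 ± 0.475 with PA, and its log2 fold change of 0.20 had an adjusted p-value of 0.0472. That call was lost in 13 of 19 alternatives, among them leaving out any BSA or PA library or PA + C3G replicate 3. Slc36a4 passed in PA + C3G versus BSA at 0.19 (adjusted p = 0.0463), lost in 14 of 19, among them leaving out any BSA or PA + C3G library or PA replicate 1.

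**Figure D4:**
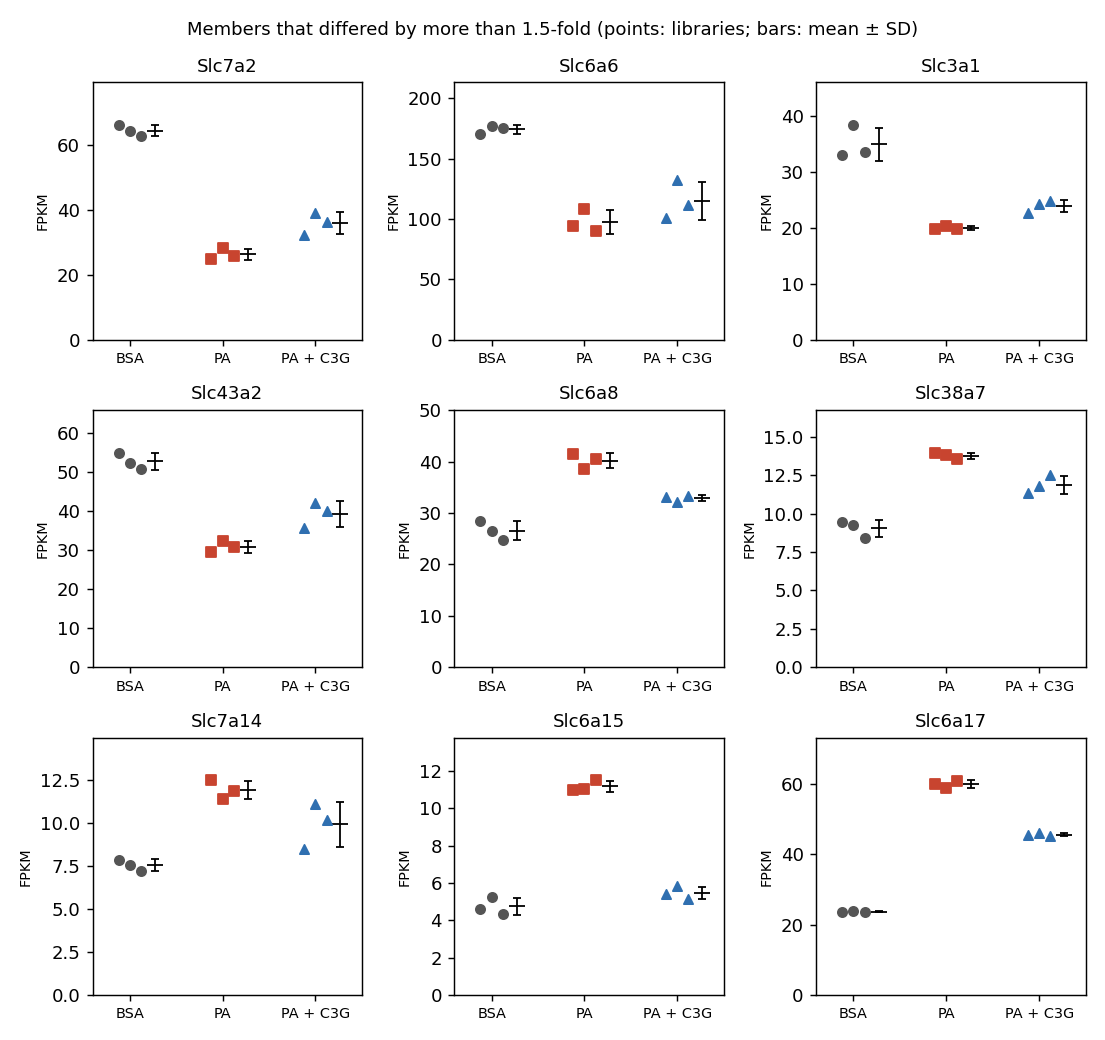
FPKM per library of the 9 genes that passed the test with a fold change above 1.5 in at least 1 comparison, with the mean ± SD beside the points of each group and axes starting at 0. The 4 genes that were lower with PA than with BSA (Slc7a2, Slc6a6, Slc3a1, Slc43a2) come first and the 5 that were higher (Slc6a8, Slc38a7, Slc7a14, Slc6a15, Slc6a17) follow. Every PA + C3G mean lies between the BSA and PA means, for genes chosen by their differences in these same libraries. The share of all genes with such a mean is not given here.

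Promoter sequences were looked up for the 31 genes, since several differed between the groups. RefSeq sequences of the GRCr8 build matched 24 of them by symbol, and the 250 bases before the start of each gene were searched on both strands. Slc7a2, Slc6a15, Slc1a1, Slc1a5, Slc7a4, Slc38a3 and Slc38a10 had no match, so their promoters were not searched. The amino acid response element core TGATGNAAN, bound by ATF4 with its partners, was in 3 of the 24 (12.5%), against 3.38% of all 33469 promoters of the same length. The antioxidant response element core TGACNNNGC was in 5 (20.8%, against 10.1%), and the E-box CACGTG, which reads the same on both strands, in 5 (20.8%, against 5.59%). The cyclic AMP response element TGACGTCA was in 1, that of Slc38a6 (1.59% of all promoters), and the ER stress response element (CCAAT and CCACG with 9 bases between them) in none (0.0657% of all). Matches of the amino acid response core were TGATGCAAC in Slc38a1 from −142 to −134 relative to the start, TGATGAAAC in Slc7a1 from −30 to −22, and GTTGCATCA, the reverse strand, in Slc1a4 from −236 to −228. Of these 3 genes, Slc1a4 passed in PA versus BSA, as lower.

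Promoters of 4 genes that differed by more than 1.5-fold and held a match are shown, with matched bases in capitals. Slc7a14 and Slc38a7 rose with PA and hold an E-box, which the promoters of Slc36a1, Slc1a4 and Slc7a5 hold too. Of these 3, Slc1a4 and Slc7a5 were lower with PA than with BSA. Slc36a1 was higher, by a call lost in 13 of 19 alternatives. Slc6a6 and Slc3a1 fell with PA and hold the antioxidant core on the reverse strand, and the other genes with that core were Slc38a2, Slc36a1 and Slc7a1. In PA versus BSA, Slc38a2 and Slc7a1 did not pass. In Slc36a1 an E-box and the antioxidant core overlap. The windows are chr2:113993531-113993780 (plus strand) for Slc7a14, chr19:9215128-9215377 (plus) for Slc38a7, chr4:125752252-125752501 (plus) for Slc6a6 and chr6:15394750-15394999 (minus) for Slc3a1.
Slc7a14: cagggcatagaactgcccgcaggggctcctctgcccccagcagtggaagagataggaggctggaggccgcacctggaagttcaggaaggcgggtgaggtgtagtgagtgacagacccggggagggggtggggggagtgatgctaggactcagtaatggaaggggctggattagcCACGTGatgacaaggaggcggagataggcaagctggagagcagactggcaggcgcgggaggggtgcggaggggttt
Slc38a7: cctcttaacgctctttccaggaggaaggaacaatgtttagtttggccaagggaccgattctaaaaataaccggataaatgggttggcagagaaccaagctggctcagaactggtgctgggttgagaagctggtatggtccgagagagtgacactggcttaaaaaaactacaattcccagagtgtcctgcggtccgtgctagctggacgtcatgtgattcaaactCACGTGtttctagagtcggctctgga
Slc6a6: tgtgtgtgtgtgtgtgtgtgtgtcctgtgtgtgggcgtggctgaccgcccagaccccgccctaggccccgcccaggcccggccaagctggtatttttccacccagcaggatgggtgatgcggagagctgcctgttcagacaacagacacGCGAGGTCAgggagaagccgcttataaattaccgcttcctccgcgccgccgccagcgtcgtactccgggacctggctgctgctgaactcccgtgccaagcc
Slc3a1: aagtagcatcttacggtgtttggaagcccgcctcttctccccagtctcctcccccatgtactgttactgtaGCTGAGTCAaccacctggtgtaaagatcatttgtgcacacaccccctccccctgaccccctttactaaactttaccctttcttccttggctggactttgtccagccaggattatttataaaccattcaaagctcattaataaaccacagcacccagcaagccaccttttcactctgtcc
The first 2 windows have a GC content of 63.2% and 48.8%, and the last 2 of 64.0% and 48.4%, against a median of 51.2% over all promoters. Of the 24 promoters found, 20 were above that median, and their own median was 61.2%, so the shares of motifs set against all promoters compare windows of unequal base composition. A match describes the letters only, and binding was not measured.

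Of the 19 genes below 1 FPKM, 13 were listed at 0 in at least 1 library and 13 had a mean under 0.1 FPKM, among them the monoamine transporter genes Slc6a2, Slc6a3 and Slc6a4. Slc38a5, which encodes the glutamine carrier SNAT5, was at 0.708, 0.983 and 1.16 FPKM with BSA, at 0.0871 in 1 PA library and listed at 0 in the other two, and at 0.171, 0.206 and 0.1885 with PA + C3G. These correspond to 92, 106 and 144 estimated counts with BSA, 12, 0 and 0 with PA, and 23, 25 and 17 with PA + C3G. Its groups did not overlap. With no filter on low values, Slc38a5 was lower in PA than in BSA with an adjusted p-value of 0.00230 by edgeR, where 32.3% of 20645 genes passed (16.2% higher and 16.1% lower). Slc38a5 did not pass in PA + C3G versus PA (adjusted p = 0.112) or in PA + C3G versus BSA (adjusted p = 0.0741) in that fit. In the same fit Slc7a3, the cationic carrier CAT3, was higher with PA (adjusted p = 0.00514), with 0, 8 and 11 estimated counts with BSA, 97, 68 and 60 with PA, and 51, 24 and 22 with PA + C3G. Slc7a3 did not pass in PA + C3G versus PA (adjusted p = 0.392). It was higher with PA + C3G than with BSA (adjusted p = 0.0478), where 21.8% of all genes passed. Slc1a3 was also higher with PA (adjusted p = 0.0193), and Slc6a5 was higher with PA + C3G than with PA (adjusted p = 0.0281, where 11.8% of all genes passed, 6.22% higher and 5.62% lower).

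Carriers of amino acids and peptides outside the 7 families were compared as well, from a list of 20 genes of which 18 were in the table and 13 were tested. In PA versus BSA 3 were higher and 5 lower, in PA + C3G versus PA 3 were higher and 0 lower, and between PA + C3G and BSA 1 was higher and 2 lower, with medians of 0.02, 0.10 and 0.11. Over all tested genes 51.0%, 21.2% and 36.9% passed in these comparisons, and with TPM scaling 2 of the carriers were higher and 1 lower in PA + C3G versus PA. Slc16a10, which encodes the aromatic amino acid transporter TAT1, was at 18.6 ± 1.28 FPKM (SD, n = 3) with BSA, 11.8 ± 0.871 with PA and 17.6 ± 1.298 with PA + C3G. It was lower with PA than with BSA by a log2 difference of −0.64 (adjusted p = 8.36e-05), and PA + C3G was above PA by 0.62 (adjusted p = 0.000718). Slc15a2, a peptide transporter, fell by 1.15 on the log2 scale with PA (adjusted p = 0.000290) and was higher by 0.84 with PA + C3G than with PA (adjusted p = 0.00710). The mitochondrial carriers differed in direction, with Slc25a38, a glycine carrier, higher by 0.70 with PA (adjusted p = 0.000304) and Slc25a13, an aspartate-glutamate carrier, at −0.63 (adjusted p = 0.00106). Slc25a22 was listed at 0 in 4 libraries of the BSA and PA + C3G groups and at 9.49 to 13.8 FPKM in the 5 others, and an exact 0 in such a table can be a failed estimate.

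Amino acid signals are passed on by the Rag GTPases, which bring mTORC1, the kinase complex that drives growth, to the lysosome. From a list of 34 genes of this pathway 30 were tested, and 14 were higher and 8 lower in PA versus BSA, where 25.8% and 25.2% of all tested genes were. Flcn, Fnip2, Rragc and Rragd were the 4 with the smallest p-values. Flcn and Fnip2 encode a complex that acts on RagC and RagD, which Rragc and Rragd encode. Flcn was at 21.1 ± 0.966 FPKM (SD, n = 3) with BSA, 51.3 ± 0.685 with PA and 41.0 ± 1.26 with PA + C3G. The log2 differences between PA and BSA were 1.31 for Flcn (adjusted p = 3.21e-08), 1.29 for Rragd (adjusted p = 4.48e-07), 1.10 for Fnip2 (adjusted p = 8.23e-07) and 0.67 for Rragc (adjusted p = 1.55e-06), and those between PA + C3G and PA were −0.29, −0.39, −0.50 and −0.31 in the same order, all with an adjusted p-value of 0.00453 or less. Over the list, 11 genes were higher and 4 lower with PA + C3G than with BSA, where 19.0% and 17.9% of all tested genes were. Relative to PA, 5 genes were higher and 10 lower with PA + C3G, where 11.1% and 10.2% of all tested genes were. These 15 calls became 6 without PA replicate 3, 8 without PA + C3G replicate 3 and 9 without PA replicate 2. The shares of all tested genes in those smaller fits are not given here, so a loss particular to this list cannot be read from them. With TPM scaling 1 was higher and 13 were lower than with PA (5.98% and 19.5% of all tested genes).

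Cystine taken up by xCT feeds glutathione synthesis, and from a list of 7 genes of glutathione synthesis and breakdown all were tested. Between PA and BSA 1 passed, Gclc, which encodes the catalytic subunit of the first enzyme, higher with PA by 0.43 on the log2 scale (adjusted p = 0.00161), and between PA + C3G and BSA 1 was higher and 1 lower. In the latter comparison 0 of the 7 passed without BSA replicate 2 or 3 or PA + C3G replicate 1 or 2. For those fits the shares of all tested genes are not given here. With all libraries, 51.0% of all tested genes passed in PA versus BSA. The share was 21.2% in PA + C3G versus PA and 36.9% in PA + C3G versus BSA. With C3G added to PA, Gclc was lower, at −0.31 (adjusted p = 0.0235), and Chac1, which breaks down glutathione, was higher by 0.49 (adjusted p = 0.00918). No gene of the list was lower than with PA without PA replicate 1 or 3 or PA + C3G replicate 2 or 3.

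Atf4 and Ddit3 encode transcription factors of the stress response, and ATF4 is known to act on several amino acid transporter genes. Atf4 was at 224 ± 18.7 FPKM (SD, n = 3) with BSA, 307 ± 30.6 with PA and 307 ± 17.9 with PA + C3G, higher with PA than with BSA by 0.48 on the log2 scale (adjusted p = 0.000815), while PA + C3G was at 0.04 relative to PA (adjusted p = 0.804). Ddit3 was higher with PA than with BSA by 1.33 (adjusted p = 6.50e-07) and lower with PA + C3G than with PA, at −0.70 (adjusted p = 0.000399).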

How the data were processed

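Polyadenylated RNA of 9 INS-1E libraries, 3 per group, was read from both fragment ends in strand-specific libraries. The submitters' processing notes name cutadapt 1.9, HISAT2 2.0.4, StringTie 1.3.4d, DESeq2 and edgeR, without roles, and the genome build is not given in the sources used here. The authors deposited estimated counts per gene, which are whole numbers without normalization, and FPKM, which the authors scaled to gene length and mapped fragments. Values of 4 estimated counts were 2.44 times as frequent as the mean of the values 3 and 5, so precision may be lower than the totals give.

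The 12958 of 20645 genes whose FPKM averaged 1 or more were tested on rounded estimated counts by the quasi-likelihood test of edgeR 4.0.16 under R 4.3.3 (TMM factors, all 9 libraries in 1 fit, Benjamini-Hochberg adjustment over all tested genes). Standard errors were taken from the log2 fold change and the F statistic. FPKM are shown as deposited. The settings changed one at a time were the tool (DESeq2 1.42.0, or limma 3.58.1 on log2(FPKM + 1) and log2(FPKM + 0.1)), the scaling (median-ratio factors, or an equal FPKM sum, called TPM scaling), the FPKM limit (none, or 5), the samples fitted (the compared groups alone, or without 1 library), a replicate block and counts divided by 4. The procedure was tested on simulated data. Values in every library are given for genes that passed with a fold change above 1.5 in at least 1 comparison and for the 5 with the highest mean FPKM, and from each related list genes among the 4 smallest p-values are named. Library values of Slc1a5, Slc7a11, Slc25a22 and genes under 1 FPKM were added after their values were seen. The genes, lists and motifs were chosen with earlier results of these data known. Sequences are from RefSeq, and Python 3.11.15 and matplotlib 3.10.9 were used for tables and figures.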

Additional observations from a re-analysis of the deposited data

How the results depend on the processing

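Of 42 log2 fold changes that passed the test, 30 kept their call in all of the 10 alternative settings and all of the 9 fits that leave out 1 library. None of the 42 changed sign. The count of genes that passed lay between 14 and 19 over the alternatives for PA versus BSA (16 as reported), 11 and 15 for PA + C3G versus PA (11) and 11 and 17 for PA + C3G versus BSA (15). Without 1 library at a time these ranges were 14 to 17, 7 to 12 and 10 to 15, and the shares of all tested genes in those fits are not given here. TPM scaling moved the median of all tested genes to −0.09 in PA + C3G versus PA. The samples share replicate numbers, but the deviations of same-numbered libraries from their group means correlated at only −0.0918 to 0.0796 (Pearson's r across genes). In PA + C3G versus PA every library correlated best with its own number, at 0.0796, 0.025 and 0.058. In the other comparisons not every library did. Single calls were followed for genes that passed in a comparison and for those chosen by fold change or mean FPKM. Among these, with the replicate block Slc3a2 passed in PA versus BSA (adjusted p = 0.0418). Slc6a6, Slc38a2 and Slc38a4 passed in PA + C3G versus PA (0.0213, 0.0421 and 0.0259). Slc38a7 in PA + C3G versus PA, Slc36a1 in PA versus BSA and Slc36a4 in PA + C3G versus BSA did not pass (0.0660, 0.0541 and 0.0536). With the block 19, 15 and 15 genes passed in the 3 comparisons, so genes not named here gained a call too. It also gave 5 of the other amino acid carriers in PA + C3G versus BSA and 3 glutathione genes in PA versus BSA.

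Values that did not pass changed sign as follows, and the cause was not tested. Slc38a2 in PA versus BSA was 0.00 with TPM scaling. In PA + C3G versus BSA, Slc3a2 was −0.02 with TPM scaling and with both limma settings and ranged from −0.02 to 0.08 without 1 library. Slc7a5 in that comparison was −0.04 in the same settings and ranged from −0.06 to 0.10, and Slc38a4 in PA versus BSA ranged from −0.13 to 0.03. For the other amino acid carriers, 8 calls in PA versus BSA became 4 at a mean FPKM of at least 5, where fewer genes are tested, 3 in PA + C3G versus PA became 1, and 3 in PA + C3G versus BSA became 5 with DESeq2. Their ranges without 1 library were 8 to 9, 2 to 3 and 3 to 5. For amino acid sensing the range in PA + C3G versus PA was 6 to 16. For glutathione, TPM scaling gave 2 calls in PA versus BSA, and TPM scaling, no filter and both limma settings gave 1 in PA + C3G versus BSA, with ranges of 1 to 2, 1 to 2 and 0 to 2 in the order of the other lists. The ratio of Slc3a2 to its light chains, examined after the data were seen, stayed at 1.35 to 1.40 with PA and at 1.06 to 1.14 in the other groups. Depth limits the genes below 1 FPKM, such as Slc38a5 with at most 12 estimated counts in a PA library.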

Other observations

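Slc3a2, Slc7a5 and Slc7a11 had their lowest FPKM in replicate 2 of every group, and Slc38a4, Slc38a6 and Slc38a10 had it in replicate 1 of every group. Over all tested genes, replicate 2 was lowest in all 3 groups for 9.02% and replicate 1 for 7.03%, against 9.68% of the 31 genes in each case. Replicate 3 was lowest in all 3 groups for 2.19% of all tested genes and for 0 of the 31 genes. The share that unrelated replicate numbers would give was not computed, so these shares do not show that the numbers are unrelated.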
